A study of Mus musculus with 40 samples.

Results

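De novo lipogenesis makes fatty acids from sugar carbon, and 10 genes of this pathway were chosen by name: the regulators Srebf1 and Mlxipl, the enzymes Acly, Acaca, Acacb, Fasn, Scd1, Scd2 and Me1, and the acyltransferase Dgat2. They are 10 of the 21809 protein-coding genes with an annotated start site. All peaks of 4 histone marks were collected over each gene body and 20000 bp on either side (GRCm38), which gave 1214 of the 457842 peaks in the series. Tissue labelled iBAT from wild type C57BL/6N mice, an inbred strain, had been profiled by chromatin immunoprecipitation with sequencing (ChIP-seq) at 20 weeks of age. The methods of the study call the tissue interscapular brown adipose tissue, whereas the design text calls it inguinal. Mice had eaten normal chow (NCD) or, starting at an age of 8 weeks, 12 weeks of high-fat diet (HFD), and either stayed warm or spent the last 24 h at 4 °C. Chow-fed animals were mice 1 and 2 (warm) and mice 4 and 5 (cold), and HFD-fed animals were mice 7 and 8 (warm) and mice 10 and 11 (cold). Each list carries a single mouse number and was taken as 1 replicate, although the methods leave room for tissue pooled from a pair of animals. No label says that the mice were litter mates or were processed on separate days.

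Sugar-derived citrate is cleaved by ATP citrate lyase (Acly) to acetyl-CoA, which acetyl-CoA carboxylases (Acaca, Acacb) turn into malonyl-CoA for fatty acid synthase (Fasn). Malic enzyme (Me1) supplies NADPH, stearoyl-CoA desaturases (Scd1, Scd2) introduce a double bond, and Dgat2 adds the last acyl chain of triglyceride. Transcription is driven by SREBP-1, made from Srebf1 downstream of insulin, and by the carbohydrate response element binding protein ChREBP, made from Mlxipl when glucose is taken up. In brown fat the pathway is known to be active beside fat burning. H3K4me3 marks active start sites, H3K27ac active start sites and enhancers, H3K4me1 enhancers, and H3K27me3 genes silenced by Polycomb. Mlxipl and Srebf1 each have several promoters. The upstream Mlxipl promoter gives the short isoform ChREBP-beta and the downstream promoter gives ChREBP-alpha, while the upstream promoters of Srebf1 include that of SREBP-1a and the downstream promoter gives SREBP-1c.

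Annotated start sites of a gene lying at most 1000 bp apart were joined, which gave 21 start sites for the 10 genes, numbered from 5′ to 3′ along each gene. Mlxipl start site 1 (beta) lies on chromosome 5 at 135089890 and start site 2 (alpha) 17001 bp downstream at 135106891. Srebf1 start site 1 lies on chromosome 11 at 60222581, start site 2 (isoform a) at 60220627 and start site 3 (isoform c) at 60210471. RefSeq promoter sequences of GRCm38.p6, from 250 bases before to 50 bases after a start, matched 11 start sites of 7 of the 10 genes. The promoters shown here are the alternative promoters of Mlxipl and those of Srebf1 start sites 2 and 3, without Srebf1 start site 1. Also shown are the Fasn promoter, where H3K4me3 width did not overlap between diets, and a Me1 pair of which only the first carried a mark. Capitals mark matches, on either strand, to the E-box CACGTG, to CCAAT, or to the GC box GGGCGG.
Mlxipl start site 1, chr5:135089640-135089939, plus strand: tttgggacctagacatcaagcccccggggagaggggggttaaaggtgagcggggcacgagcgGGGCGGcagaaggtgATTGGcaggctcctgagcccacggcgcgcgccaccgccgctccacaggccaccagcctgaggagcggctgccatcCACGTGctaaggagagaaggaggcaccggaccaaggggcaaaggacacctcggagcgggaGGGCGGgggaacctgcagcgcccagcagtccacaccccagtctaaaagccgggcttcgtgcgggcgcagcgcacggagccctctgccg
Mlxipl start site 2, chr5:135106641-135106940, plus strand: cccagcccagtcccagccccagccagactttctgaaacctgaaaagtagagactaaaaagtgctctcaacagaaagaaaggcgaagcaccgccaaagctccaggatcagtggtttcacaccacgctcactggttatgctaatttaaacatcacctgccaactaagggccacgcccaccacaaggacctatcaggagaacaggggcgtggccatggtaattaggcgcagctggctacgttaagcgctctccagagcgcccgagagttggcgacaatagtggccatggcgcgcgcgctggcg
Srebf1 start site 2, chr11:60220578-60220877, minus strand: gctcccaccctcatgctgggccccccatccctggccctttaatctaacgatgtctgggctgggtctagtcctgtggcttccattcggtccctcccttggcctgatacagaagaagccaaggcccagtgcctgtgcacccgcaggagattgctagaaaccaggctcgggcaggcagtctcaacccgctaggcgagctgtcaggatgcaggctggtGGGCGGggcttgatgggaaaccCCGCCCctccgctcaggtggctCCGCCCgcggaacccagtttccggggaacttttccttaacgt
Srebf1 start site 3, chr11:60210422-60210721, minus strand: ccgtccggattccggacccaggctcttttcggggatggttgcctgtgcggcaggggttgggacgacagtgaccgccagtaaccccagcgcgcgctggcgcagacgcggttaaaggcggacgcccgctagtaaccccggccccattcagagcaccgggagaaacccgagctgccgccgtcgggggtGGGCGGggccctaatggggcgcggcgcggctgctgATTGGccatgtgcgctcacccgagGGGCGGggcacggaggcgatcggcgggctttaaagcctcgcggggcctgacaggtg
Fasn start site 1, chr11:120824498-120824797, minus strand: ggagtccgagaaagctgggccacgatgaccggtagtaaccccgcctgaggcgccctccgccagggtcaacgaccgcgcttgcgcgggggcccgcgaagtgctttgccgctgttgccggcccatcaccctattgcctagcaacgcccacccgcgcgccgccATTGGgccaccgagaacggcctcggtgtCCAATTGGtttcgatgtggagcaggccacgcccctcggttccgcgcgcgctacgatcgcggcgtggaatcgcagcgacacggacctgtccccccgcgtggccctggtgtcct
Me1 start site 1, chr9:86695865-86696164, minus strand: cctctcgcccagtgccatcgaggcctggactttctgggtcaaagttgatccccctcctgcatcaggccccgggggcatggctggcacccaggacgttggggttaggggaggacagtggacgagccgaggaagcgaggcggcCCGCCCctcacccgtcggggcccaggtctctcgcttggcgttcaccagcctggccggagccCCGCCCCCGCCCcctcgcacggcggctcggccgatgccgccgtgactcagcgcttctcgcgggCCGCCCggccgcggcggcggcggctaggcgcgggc
Me1 start site 2, chr9:86687228-86687527, minus strand: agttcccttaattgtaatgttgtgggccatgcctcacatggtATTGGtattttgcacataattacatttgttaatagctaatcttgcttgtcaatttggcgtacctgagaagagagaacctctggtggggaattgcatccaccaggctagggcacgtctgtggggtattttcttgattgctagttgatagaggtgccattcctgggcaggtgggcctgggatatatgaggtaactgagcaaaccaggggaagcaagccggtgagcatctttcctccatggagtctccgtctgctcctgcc

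An E-box, the core of the sites that ChREBP and SREBP-1 recognise, stood in 1 of the 11 promoters, that of Mlxipl start site 1 at 98 bases before the start, and in 7.15% of 32851 mouse promoters of the same length. Mlxipl start site 2 held none of the motifs searched. CCAAT, bound by NF-Y, was found in 7 of the 11 promoters against 37.4% of all, with 3 copies at Fasn, of which a pair overlaps in the run CCAATTGG. GC boxes, bound by SP1, stood in 5 of 11 against 35.7%. Me1 start site 1 held 4 GC boxes and 35 CpG dinucleotides, whereas Me1 start site 2 held 4 CpG and no GC box. CpG numbers were 36 at Srebf1 start site 3, 39 at Fasn, 25 at Mlxipl start site 1 and 16 at Mlxipl start site 2, against a median of 7 over all promoters. TATAAA stood in 1 of the 11 promoters, Acacb start site 2, against 13.6% of all. The sterol regulatory element core TCACCCCAC (0.551% of all promoters), CACGTG pairs with 5 bases between them (0%) and AGGTCA repeats with 1 base (0.0396%) or 4 bases (0.0152%) between them were in none of the 11. A match is a string of letters and not a measured binding site. Only these exact strings were searched, so a missing match does not show that a variant of the site is absent.

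The lists differed greatly in length, which limits what their gaps can show. H3K4me3 lists held 13517 to 24104 peaks, H3K27ac lists 3224 (mouse 7) to 40604 (mouse 11), H3K4me1 lists 12 (mouse 7), 18 (mouse 10) and 592 (mouse 1) to 27568, and H3K27me3 lists 20 to 6428. In the order of mice 1, 2, 4, 5, 7, 8, 10 and 11, used throughout, the windows of the 10 genes held 79, 89, 87, 91, 21, 126, 38 and 113 H3K27ac peaks and 1, 71, 27, 73, 0, 33, 0 and 20 H3K4me1 peaks. Mice 7 and 10, both fed HFD, were thus low for both marks, and mouse 1 for H3K4me1. Median H3K4me3 fold enrichment over all peaks of a list was 11.8 to 28.6 in NCD mice and 5.14 to 11.8 in HFD mice. A missing peak in a short list was not detectable at that depth and does not show that the mark is absent. Of 10 adipocyte markers, 9 had H3K4me3 at a start site in all 8 mice and Prdm16 in 7, and the endothelial markers Pecam1, Cdh5 and Kdr had H3K4me3 in 7 or 8 mice and H3K27ac in 6 to 8. The liver markers Alb, Apoa1 and Ttr had none in any mouse and no macrophage marker was marked in more than 2 mice. Mylpf, a skeletal muscle gene, had H3K4me3 in 8 mice and Acta1 in 4, whereas Ckm and Myod1 had none. In bulk tissue, fewer cells of a type and less signal in each cell cannot be told apart.

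All 10 genes had an H3K4me3 peak at a start site in 8 of 8 mice, and none had H3K27me3 at a start site in any mouse. The only H3K27me3 peak in any window lay in the flank of Acacb in mouse 5, whose list was the longest. H3K27ac was at a start site in all 8 mice for Acaca and Acacb, and in 6 or 7 mice for the other 8 genes, with mice 7 and 10 accounting for every gap. H3K4me1 was at a start site of 6 of the 10 genes in at least 1 mouse and of none in more than 4. A start site was taken to follow temperature or diet when all 4 mice of a group, and no mouse outside it, had a peak there. No start site of the 10 genes did so for any mark. Over all start sites with a peak, the pattern was seen for H3K4me3 at 0.0923% by temperature and 0.289% by diet, for H3K27ac at 0.177% and 0.129%, for H3K4me1 at 0% and 0.0508%, and for H3K27me3 at 0% and 0.452%. No difference in presence between groups was thus detectable at these promoters at this depth.

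**Figure D1:**
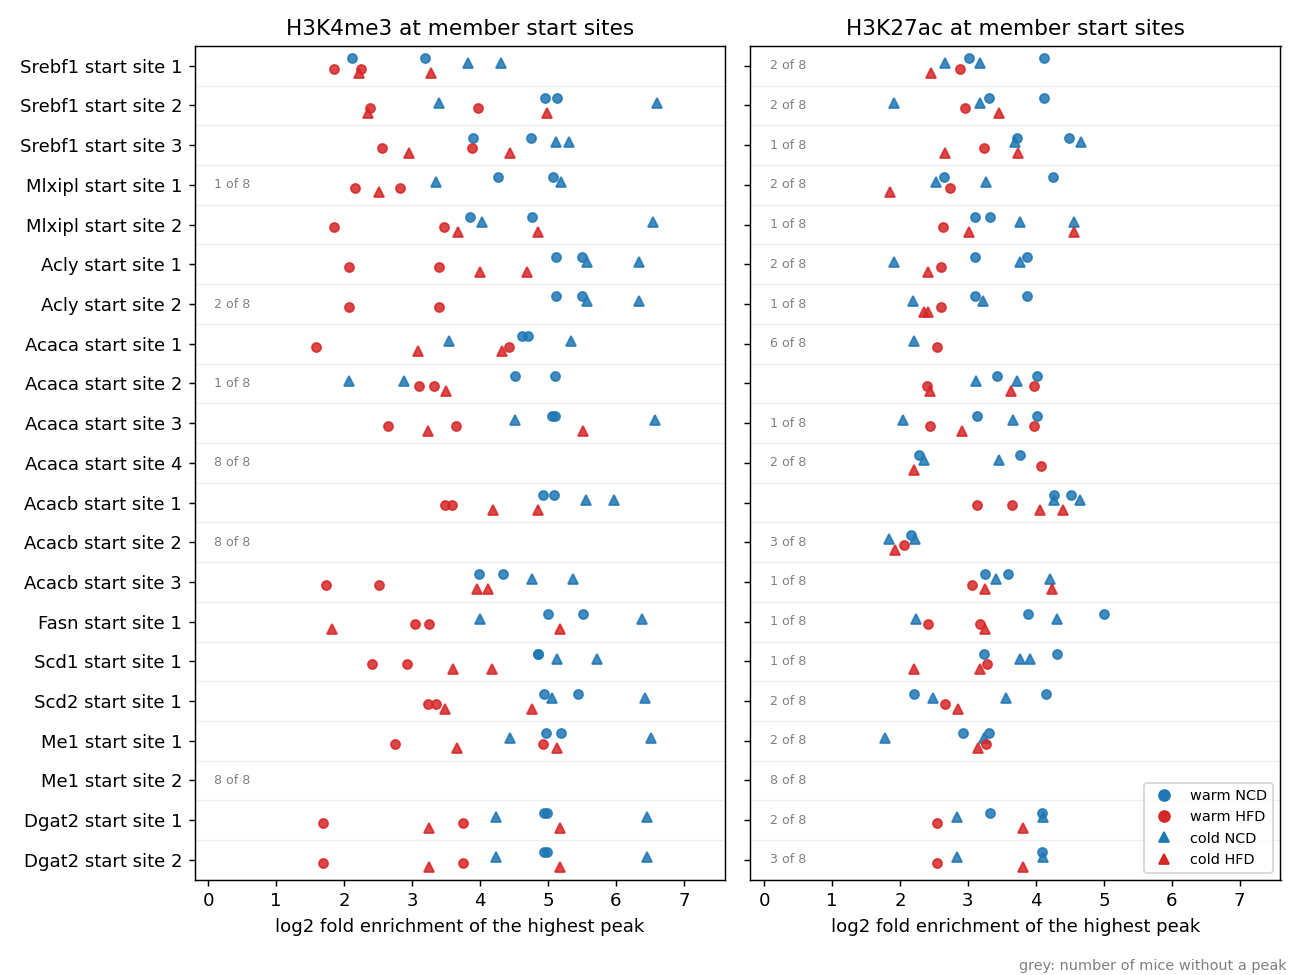
Log2 fold enrichment of the highest H3K4me3 peak (left) and H3K27ac peak (right) at each of the 21 start sites, with 1 point per mouse, circles for warm, triangles for cold, blue for NCD and red for HFD. Grey text gives the number of the 8 mice without a peak, which is 8 of 8 for H3K4me3 at Acaca start site 4, Acacb start site 2 and Me1 start site 2.

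Mlxipl, the source of ChREBP, had H3K4me3 at both promoters. At start site 1 (beta) the fold enrichment of the highest H3K4me3 peak was 19.2, 33.8, 10.3, 36.4, 4.48, 7.09, no peak and 5.73. At start site 2 (alpha) it was 14.4, 27.1, 16.3, 93.1, 3.61, 11.1, 12.8 and 29.0. As deposited, every NCD mouse exceeded the 3 HFD mice with a peak at the beta site, while the diets overlapped at the alpha site. Within its list the beta peak stood at percentile 44.2 to 77 in NCD mice and at 28.9 to 39.0 in the 3 HFD mice with a peak. These percentiles were not tested by diet, and the share of start sites whose percentiles separate by diet was not counted. Across all start sites with H3K4me3 in 8 mice, to which the beta site does not belong, 21% had deposited folds that were lower in every HFD mouse. H3K27ac at the beta site was 6.29, 19.0, 5.75, 9.65, no peak, 6.66, no peak and 3.6, and at the alpha site 10.0, 8.62, 13.6, 23.5, no peak, 6.21, 8.08 and 23.7. Mouse 7 had H3K27ac at neither site, and mouse 10 had it only at the alpha site.

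In both marks the balance between the Mlxipl promoters did not overlap between cold and warm mice. The log2 fold of the beta site minus that of the alpha site, with no peak set at 0, was 0.41, 0.32, -0.67, -1.36, 0.31, -0.64, -3.68 and -2.34 for H3K4me3. For H3K27ac it was -0.67, 1.14, -1.24, -1.28, 0.00, 0.10, -3.02 and -2.72. All 4 cold mice had a higher fold at the alpha site, or a peak there only, and lay below every warm mouse. Among warm mice either site could be the higher. Mouse 10 had no beta peak in either mark, so its values are the height of the alpha site alone. Warm mouse 7 had no H3K27ac peak at either site, so its 0.00 is not a measured balance. For H3K4me3, cold mouse 4 (-0.67) lay close to warm mouse 8 (-0.64). For H3K4me3 the difference was -2.01 ± 1.31 in cold and 0.10 ± 0.50 in warm mice (SD, n = 4 each, exact permutation p = 0.0286, adjusted p = 1.0). For H3K27ac it was -2.06 ± 0.94 and 0.14 ± 0.75 (SD, n = 4 each, exact permutation p = 0.0286, adjusted p = 1.0). The p of 0.0286 is the smallest that 4 against 4 mice can give. At that p a pair could pass the adjustment only if a large share of all pairs reached it too. The groups did not overlap in 0.887% of 6878 start-site pairs for H3K4me3 and in 1.51% of 5307 for H3K27ac. By diet the Mlxipl difference overlapped (11.8% of pairs did not for H3K4me3 and 2.83% for H3K27ac), with an exact permutation p of 0.257 for H3K4me3 and 0.400 for H3K27ac (n = 4 each). These tests by group were chosen after the data were seen. Ranks within each list gave a cold-minus-warm difference of -0.48 for H3K4me3 and -0.58 for H3K27ac, and mice with peaks at both sites gave -1.56 (7 mice) and -1.93 (6 mice), each with an exact permutation p of 0.0571 or above.

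**Figure D2:**
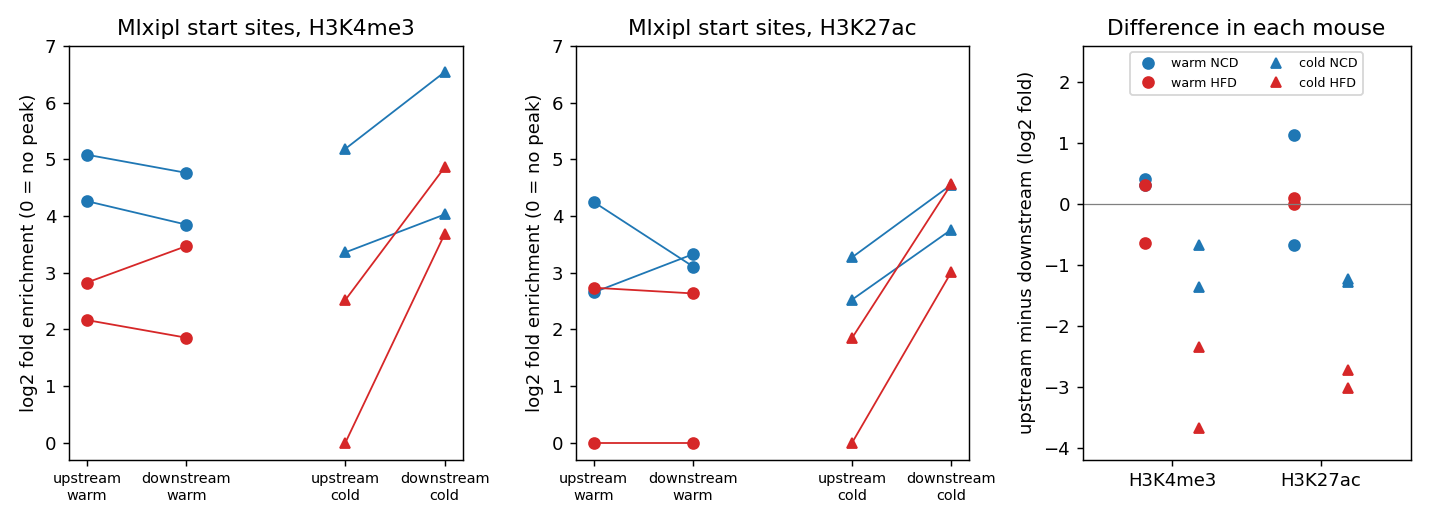
Log2 fold enrichment at the upstream (beta) and downstream (alpha) start sites of Mlxipl for H3K4me3 and H3K27ac, joined by a line for each mouse, and the upstream minus downstream difference on the right (circles warm, triangles cold, blue NCD, red HFD, 0 for no peak). All 4 cold mice lie below 0 in both marks, from -0.67 to -3.68 for H3K4me3. The lowest value in each mark is from a mouse without a beta peak.

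On its own, the alpha site did not pass the test for temperature. After quantile normalization its H3K4me3 was higher in all 4 cold than in any warm mouse, as at 1.62% of start sites, with a log2 difference of 0.65 (SE 0.35, limma adjusted p = 0.881). The H3K4me3 peak there was 1759, 2118, 3090, 3166, 927, 1265, 1324 and 3156 bp wide. The 2 cold mice of each diet were wider than the 2 warm ones, but cold mouse 10 was narrower than warm mice 1 and 2. The share of all start sites with that order within each diet was not counted. The normalized log2 width difference was 0.74 (SE 0.22, limma adjusted p = 0.426). Normalized widths here were not higher in every cold mouse, a pattern found at 1.67% of start sites.

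Srebf1, the source of SREBP-1, had H3K4me3 at all 3 start sites in 8 of 8 mice. Start site 1 had folds of 4.35, 9.10, 14.2, 19.8, 3.6, 4.74, 4.65 and 9.73. Start site 2 (isoform a) had 31.0, 35.1, 10.5, 97.5, 5.21, 15.7, 5.11 and 31.7, and start site 3 (isoform c) had 14.8, 26.8, 34.9, 39.8, 5.89, 14.7, 7.75 and 21.8. Start site 1 was below start site 3 in 8 of 8 mice, by 1.24 ± 0.40 on the log2 scale (SD, n = 8, exact sign-flip adjusted p = 0.0191), and below start site 2 in 7 of 8 (1.34 ± 1.14 SD, adjusted p = 0.0399, exact). When pairs with a missing peak were left out of all genes, the differences and all 8 mice were the same, but the adjusted p rose to 0.205 and 0.218 (exact) and neither passed. The isoform a and c sites differed by 0.11 ± 0.97 (SD, n = 8, exact sign-flip adjusted p = 0.886), with the a site higher in 5 mice and the c site in 3. The widest H3K4me3 peak had a median over mice of 3585 bp at the c site and 1038 bp at the a site. H3K27ac at the c site was 13.3, 22.5, 13, 25.4, no peak, 9.40, 6.32 and 13.3, a median percentile of 94.3 within the lists. For H3K27ac the step from site 3 down to site 1 was larger in every cold mouse than in any warm mouse (-1.61 ± 0.72 against -0.35 ± 0.29, SD, n = 4 each, exact permutation p = 0.0286, adjusted p = 1.0). Over all genes, temperature groups did not overlap in 1.51% of 5307 start-site pairs for H3K27ac. Mouse 7, with no H3K27ac peak at any Srebf1 start site, enters that comparison as 0. Cold mouse 10 had no H3K27ac peak at start site 1, so its value of -2.66 is the height of start site 3 alone.

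Among the enzymes, several start sites of a gene were unequal in use. Across the 16 pairs of start sites within the 10 genes, 9 passed for H3K4me3 over the 8 mice (exact sign-flip test, adjusted p below 0.05), beside 67.1% of 7154 pairs over all genes. In 6 of the 9 (Acaca start sites 1, 2 and 3 against 4, Acacb 1 and 3 against 2, and Me1 1 against 2), a site had no H3K4me3 peak in any mouse and was set at 0, which fixed the sign, so these are a description. The background was filled in the same way. With only mice that had both peaks, 10 pairs remained and 0 passed, as did 0 of 2391 over all genes. Acacb, the carboxylase on the mitochondrial surface, had H3K4me3 at start site 1 with folds of 30.4, 34.1, 47.1, 62.6, 12.0, 11.2, 18.3 and 29.0 and at start site 3 with 20.1, 15.9, 27.1, 41.5, 3.32, 5.71, 17.4 and 15.5. Start site 1 was higher in 8 of 8 mice by 0.86 ± 0.51 (SD, exact sign-flip adjusted p = 0.0191, or 0.205 among pairs with both peaks), and start site 2, the RefSeq start, had no H3K4me3 in any mouse. H3K27ac at Acacb start site 1 reached percentile 91.3 to 99.4 of the list in all 8 mice, the highest placed of the 10 genes by median (98.7). For H3K27ac none of the 16 pairs passed and none of 5436 over all genes (0%), where 0.00781 is the smallest p that sign flips over 8 mice can give. At Acacb the H3K4me3 step from start site 1 to 2 was 4.03 ± 0.63 on HFD and 5.39 ± 0.47 on NCD without overlap (log2, SD, n = 4 each, exact permutation p = 0.0286, adjusted p = 0.242). Over all genes, diet groups did not overlap in 11.8% of 6878 start-site pairs for H3K4me3, so such a pattern was common. Since start site 2 had no peak, that step equals the deposited height of start site 1, which the lower folds of HFD lists enter.

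Acaca, the cytosolic carboxylase, has 4 annotated start sites. Its first 3 had H3K4me3 in 8, 7 and 8 mice, and the fourth, 65766 bp downstream of the first, in none, although H3K27ac was found there in 6 mice. Start site 3 had H3K4me3 folds of 33.4, 34.5, 22.9, 94.9, 6.23, 12.5, 9.39 and 45.7, and start site 2 had 22.7, 34.5, 7.36, 4.21, 8.55, 10.0, no peak and 11.3. Start site 2 minus 3 was -2.84 ± 1.29 in cold and -0.10 ± 0.44 in warm mice (log2, SD, n = 4 each, exact permutation p = 0.0286, adjusted p = 1.0), with no overlap. Over all genes, temperature groups did not overlap in 0.887% of 6878 start-site pairs for H3K4me3. Cold mouse 10 had no peak at start site 2, which was set at 0, so its value of -3.23 is the height of start site 3 alone. In mouse 2 the same 8669 bp peak counted for both sites, and in mouse 1 both lay in peaks of 6152 bp, so the sites were not separated there. H3K27ac at start site 2 was 10.8, 16.2, 8.68, 13.2, 5.29, 15.8, 5.46 and 12.4. After normalization it was lower in every cold than in any warm mouse, as at 0.983% of start sites, by 0.48 (log2, SE 0.30, limma adjusted p = 0.902).

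Me1, the NADPH source, used a single site: start site 1 had H3K4me3 folds of 31.4, 36.6, 21.7, 91.5, 6.69, 30.3, 12.7 and 35, while start site 2, 8676 bp downstream, had neither H3K4me3 nor H3K27ac in any mouse. Acly, at the entry to the pathway, had 34.8, 45.4, 47.7, 80.8, 4.19, 10.5, 16.0 and 25.8 at start site 1, every NCD mouse above every HFD mouse. The same wide peak covered Acly start site 2 in 6 mice. Fasn had 32.2, 45.8, 16.0, 83.5, 8.26, 9.49, 3.54 and 36.1, with overlap between diets and between temperatures. Scd1, the main desaturase of adipose tissue, had 28.8, 29.0, 35.3, 52.8, 5.34, 7.56, 12.2 and 18.1, and its neighbour Scd2 had 30.7, 43.3, 33.4, 85.7, 9.42, 10.2, 11.2 and 27.1. Both were lower in all HFD mice. At Dgat2 a single peak covered both start sites, with folds of 30.6, 31.7, 18.8, 88.1, 3.21, 13.4, 9.51 and 36.1 and overlapping groups.

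Deposited folds are given above as a description, and median H3K4me3 folds were lower in each HFD list than in any NCD list, so the test used normalized folds. There, 15 start sites of the 10 genes entered for H3K4me3. By temperature 0 of 15 passed the limma test (0% of 10147 start sites passed, and 551, or 5.43%, had an unadjusted p below 0.05), and 0 of 15 had an unadjusted p below 0.05. By diet 0 of 15 passed (0.0197% of all, with 5.74% at an unadjusted p below 0.05), again with 0 of 15 below it. Log2 differences ran from -0.48 at Fasn to 0.71 at Acacb start site 3 by temperature, with a median of 0.13 against 0.01 over all start sites, and from -0.60 at Acly (SE 0.32, limma adjusted p = 0.846) to 0.38 at Me1 by diet, with a median of -0.02 against -0.01. As deposited, 4 of 15 were lower in every HFD mouse (Acly, Scd1, Scd2 and Acacb start site 1) beside 21% of all, a share near the background. After normalization, 0 of 15 were lower in every HFD mouse (1.55% of all), 0 were higher (1.9%), and 0 were lower in every cold mouse (1.18%). H3K27ac could be fitted at 2 start sites, Acaca start site 2 and Acacb start site 1, and neither passed by temperature (0% of 916, with 34 or 3.71% at an unadjusted p below 0.05) or diet (0% of 916, with 70 or 7.64%). Neither was higher (2.62% of all) or lower (2.18%) in every HFD mouse. The interaction, the cold effect on HFD minus that on NCD, was called at 0 of 15 for H3K4me3 (0% of all, 451 or 4.44% at an unadjusted p below 0.05) and 0 of 2 for H3K27ac (0% of all, 66 or 7.21% at an unadjusted p below 0.05).

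Breadth of H3K4me3 at the start sites, a measure added after the data were seen, was mostly lower on HFD, though no start site passed after adjustment. The Fasn peak was 8117, 7992, 6794 and 6785 bp wide in the NCD mice 1, 2, 4 and 5, and 2519, 4463, 1419 and 4264 bp in the HFD mice 7, 8, 10 and 11. Every NCD mouse thus had a wider Fasn peak than any HFD mouse, with a normalized log2 difference of -1.22 (SE 0.28, unadjusted p = 0.0011, limma adjusted p = 0.105). Scd1 widths were 4809, 5168, 3451 and 3666 bp in NCD and 2038, 2154, 3085 and 3184 bp in HFD mice, also without overlap (log2 -0.58, SE 0.23, limma adjusted p = 0.240). Acly widths of 5374, 5430, 4201 and 4121 bp in NCD exceeded the 3527, 3683, 1038 and 2930 bp in HFD mice (log2 -0.77, SE 0.33, limma adjusted p = 0.255). Srebf1 start site 3 had 4209, 4190, 2891 and 4736 bp in NCD and 667, 2979, 769 and 4275 bp in HFD mice, which overlap as deposited but not after normalization (log2 -1.08, SE 0.36, limma adjusted p = 0.177). Across the 15 start sites, 13 had a lower width on HFD after normalization, beside 4734 of 10147 over all, with a median of -0.42 against 0.03. Dgat2 enters these counts with 2 start sites under the same peak. An unadjusted p below 0.05 was reached by 5 of 15, all narrower on HFD (Fasn, Srebf1 start site 3, Scd1, Acly and Mlxipl start site 2), beside 17.9% of all start sites. After adjustment 0 of 15 passed, beside 0.197% of all. Normalized widths were lower in every HFD mouse at 3 of 15 (Srebf1 start site 3, Fasn and Scd1) beside 3.76% of all and higher at 0 of 15 beside 6.11%, and deposited widths at 3 of 15 (Acly, Fasn and Scd1) beside 1.99%. Median peak width of the lists was 839 to 1117 bp in NCD and 597 to 1031 bp in HFD mice, and mouse 7 was lowest. The part of list depth in these widths was not tested beyond the normalization.

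**Figure D3:**
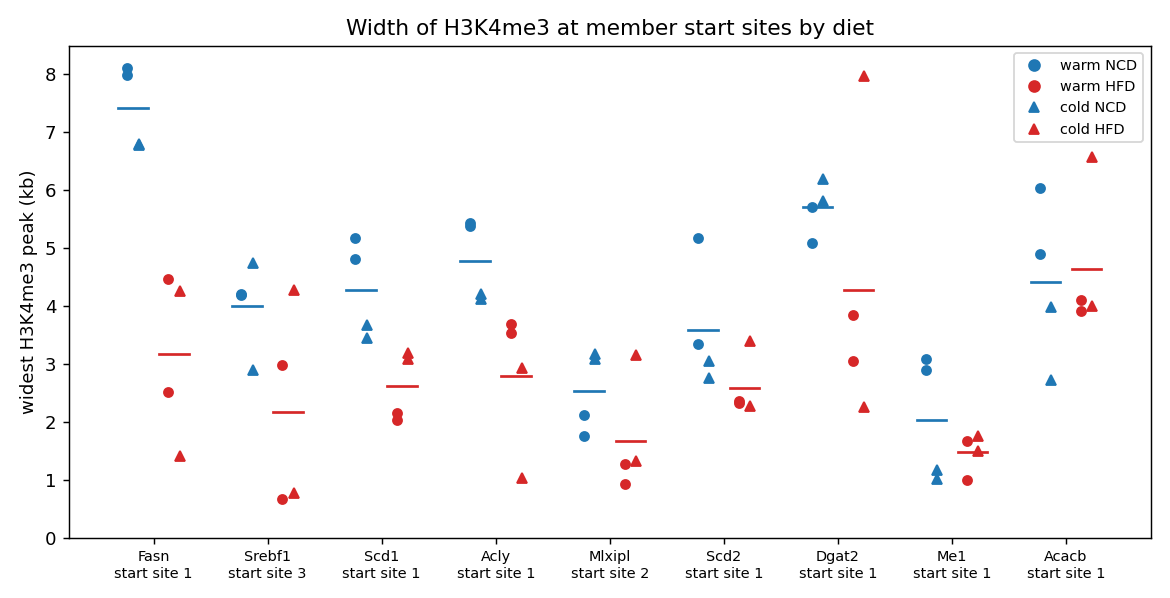
Width in kb of the widest H3K4me3 peak at 9 start sites, with NCD mice in blue and HFD mice in red, circles for warm and triangles for cold, and a bar at each group mean. At Fasn the 4 NCD mice lie between 6785 and 8117 bp and the 4 HFD mice between 1419 and 4463 bp, whereas at Dgat2 and Acacb the diets overlap.

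By temperature, 5 of 15 widths had an unadjusted p below 0.05, beside 7.85% of all start sites, and 0 passed after adjustment (0% of all, limma). Mlxipl start site 2 and Acacb start site 3 (0.55, SE 0.22) had positive differences, wider in cold mice, and Acaca start site 3 (-1.29, SE 0.42), Acly (-0.77, SE 0.33) and Me1 (-0.68, SE 0.22) had negative differences. Normalized widths were lower in every cold mouse at 1 of 15, Acaca start site 3 (1.43% of all), and higher at 0 of 15 (1.67%). These 3 were also the start sites whose width interaction had an unadjusted p below 0.05, 3 of 15 beside 5.37% of all, and 0 of 15 passed after adjustment (0.00986% of all, limma). The cold difference on HFD minus that on NCD was 2.08 at Acaca start site 3 (SE 0.61, limma adjusted p = 0.714), 1.03 at Me1 (SE 0.33, limma adjusted p = 0.806) and -1.43 at Acly (SE 0.51, limma adjusted p = 0.889). At Acaca start site 3 widths were 6152 and 8669 bp in warm and 682 and 2233 bp in cold NCD mice, and 1443 and 2517 bp against 1852 and 2595 bp on HFD. In the warm NCD mice start sites 2 and 3 were not separated, so those widths are not the breadth of start site 3 alone. As deposited, cold mice were narrower at Acaca start site 3 and Me1 on NCD only, whereas at Acly cold mice were narrower on both diets. Me1 widths were 2898, 3086, 995 and 1674 bp in warm and 1015, 1165, 1502 and 1749 bp in cold mice, which overlap. Widths of H3K27ac at Acaca start site 2 and Acacb start site 1 did not pass for temperature (1.09% of 916 start sites did) or for diet (0%, with 7.53% at an unadjusted p below 0.05). Neither width was higher (2.62%) or lower (1.09%) in every cold mouse, nor higher (1.97%) or lower (2.18%) in every HFD mouse. Acaca start site 2 had an unadjusted p below 0.05 in both, as 1 of the 2, with log2 differences of -1.47 by diet (SE 0.49, limma adjusted p = 0.417) and -1.25 by temperature (SE 0.49, limma adjusted p = 0.420), beside 7.75% of all start sites by temperature.

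Distal H3K27ac, meaning peaks more than 1000 bp from every annotated start site, formed 128 regions in the windows, out of 35613 in the genome, once overlapping peaks of the 8 mice were joined. In the windows, 23 regions (18.0%) recurred in at least 5 mice, beside 22.3% of all distal regions, and 55 (43.0%) were seen in 1 mouse, beside 41.9%. H3K4me1 overlapped 19 of the 23 recurrent regions in at least 1 mouse (82.6%, against 74.2% of all recurrent regions). Acacb had 19 regions, 7 of them recurrent, Dgat2 had 22 with 3, Acaca 28 with 3 in the longest window, and Scd1 12 with 4. Acly and Me1 had no recurrent region.

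In all 8 mice, including mouse 7 with the shortest list, 4 of the 128 distal regions were present. That is 3.12%, near the 2.82% of all 35613 distal regions. An intron of Mlxipl held a region at chr5:135108481-135111805, 3317 bp downstream of the alpha start, with a median fold of 6.60 and H3K4me3 overlapping in 7 mice. An Acacb intron held a region at chr5:114159638-114162803 with a median fold of 7.71. A region at chr19:44386881-44391172, beyond the 3′ end of Scd1 and 19528 bp from its start, had a median fold of 12.8, the highest of the 23, and was overlapped by H3K4me3 in 7 mice and by H3K4me1 in 4. A Dgat2 intron held the fourth, at chr7:99160518-99163852, with a median fold of 5.95, H3K4me1 in 4 mice and H3K4me3 in 1. Other recurrent regions also reached a high fold in at least 1 list: upstream of Dgat2 (chr7:99186523-99193576, 7 mice) the highest fold was 21.5, and in the first part of Acacb (chr5:114150486-114159314, 7 mice) it was 21.1. The second Mlxipl intron region (chr5:135112589-135114585, 7 mice, missing in a warm HFD mouse) had a median fold of 10.6 and no H3K4me3.

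**Figure D4:**
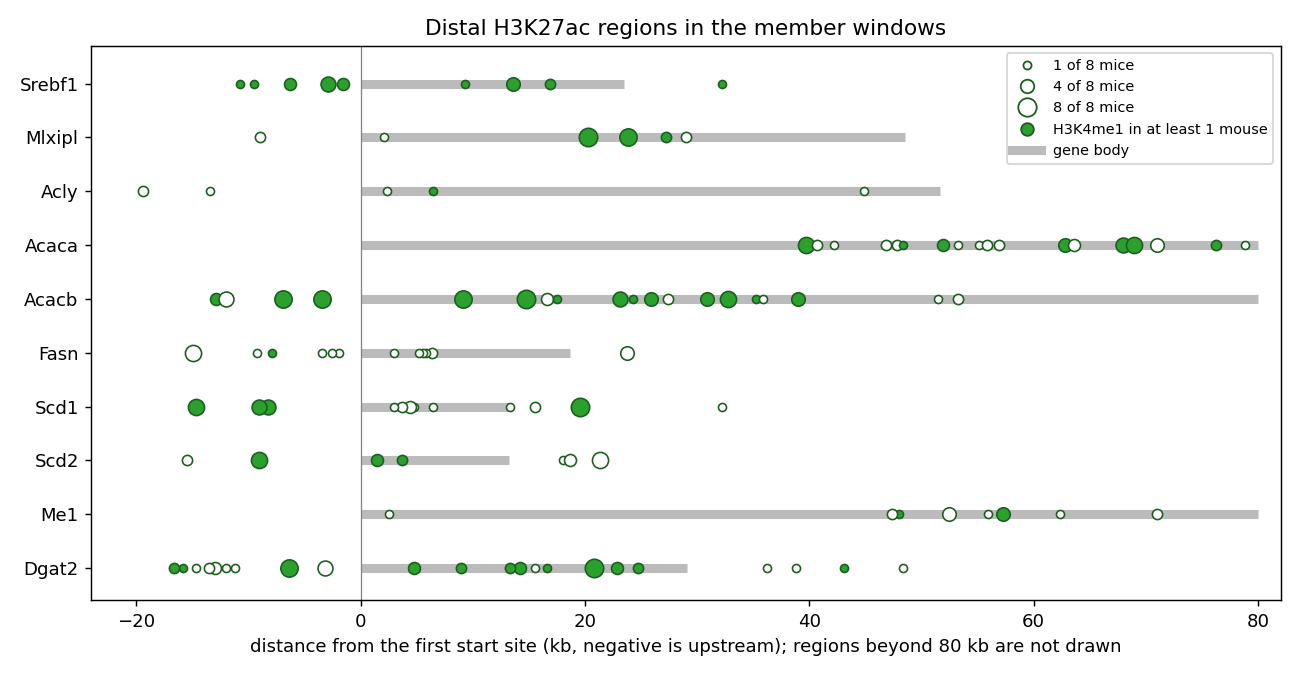
Distal H3K27ac regions of each gene by distance in kb from its first start site, negative being upstream, with circle size for the number of mice with a peak, fill for H3K4me1 in at least 1 mouse and a grey bar for the gene body. The 4 regions in all 8 mice lie inside Mlxipl, Acacb and Dgat2 and downstream of Scd1, and regions beyond 80 kb are not drawn.

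Few distal regions followed temperature or diet. By temperature, 1 of 128 followed a group in this all-or-none sense, beside 0.376% of all distal regions: an Acacb intron at chr5:114183702-114186468, present in all 4 cold mice with a median fold of 5.07 and without any H3K27ac peak in the 4 warm mice. H3K4me1 overlapped it in 5 mice, so that mark was not limited to the cold group. By diet, 2 of 128 did so, beside 0.0927% of all. In Srebf1, chr11:60206818-60209337 was called distal in the 4 HFD mice only, but H3K27ac peaks overlapped it in all 8 mice. In NCD mice the overlapping peak came within 1000 bp of an annotated start and was not counted as distal. Of the HFD mice, 3 also had an H3K27ac peak at the isoform c start site. Whether peaks differed in breadth or were split in peak calling was not tested. In Acaca, chr11:84191953-84192691 was present in the 4 NCD mice, and another H3K27ac peak overlapped it in 1 HFD mouse. With a stricter limit of 5 on −log10 q, neither the temperature region nor the diet regions kept the pattern (0 and 0).

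To allow for list length, distal H3K27ac peaks in a window were counted per 10000 distal peaks of the list. Acacb had the highest median, 8.07, at percentile 99 of the 10242 genes tested, followed by Dgat2 (5.73), Acaca (4.25), Scd1 (3.26), Scd2 (2.07), Mlxipl (1.96), Fasn (1.70), Srebf1 (1.61), Me1 (0.875) and Acly (0.241). Neighbours in that order overlapped in their ranges over mice. Per length of window Dgat2 came first, at percentile 99.3 of genes. Acacb had 17.8, 7.56, 6.94, 7.93, 28.3, 8.20, 14.6 and 6.08, where the values of mice 1, 7 and 10 come from the shortest lists, with 13, 6 and 13 peaks. By temperature 0 of 10 genes had an exact permutation p below 0.05, beside 2.61% of all genes (267), and by diet 0 of 10, beside 2.49% (255), and 0% of all passed after adjustment for either. Summed over the 10 windows, the values were 56.2, 31.5, 26.7, 31.2, 61.4, 38.6, 30.4 and 28.1, or 29.1 ± 2.03 in cold and 46.9 ± 14.2 in warm mice (SD, n = 4 each). The cold sums lay below the warm ones, but how often the same holds for other sets of 10 genes was not counted. The sum itself was not tested. The mean was lower in cold mice for 9 of 10 genes, Scd2 being the exception, while the median difference over all genes was 0.09. The share of all genes with a lower mean in cold mice was not counted. With a distal limit of 2500 bp, Mlxipl (0.11), Fasn (0.65) and Scd2 (0.09) were higher in cold mice and the other genes lower. With −log10 q of at least 5, Mlxipl (0.20), Srebf1 (0.54) and Fasn (0.06) were higher and the other genes lower. The 2 highest sums came from mice 1 and 7, with short lists, and the other warm mice had 31.5 and 38.6. The part of list length in this difference was not tested. Scd1 had 2.52 ± 0.99 in cold and 5.71 ± 3.01 in warm mice (SD, n = 4 each, exact permutation p = 0.0857), and Srebf1 1.33 ± 0.33 and 3.02 ± 1.35 (SD, n = 4 each, exact permutation p = 0.0857), with overlap in both. By diet Scd1 had 4.15 ± 3.65 on HFD and 4.08 ± 1.87 on NCD (SD, n = 4 each), and Acacb 14.3 ± 10.0 and 10.1 ± 5.19.

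**Figure D5:**
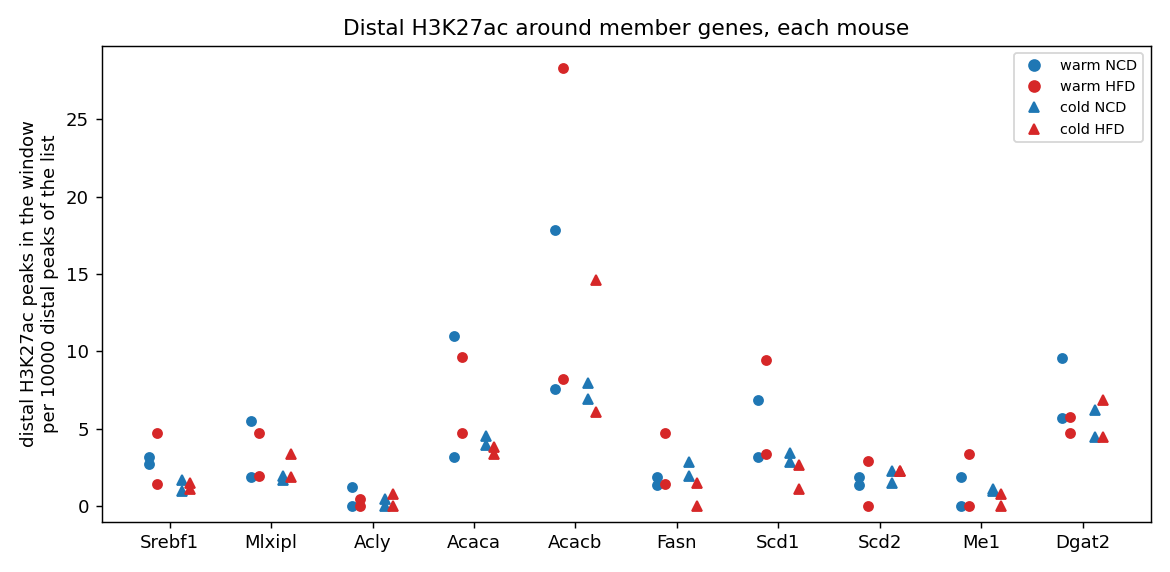
Distal H3K27ac peaks in each gene window per 10000 distal peaks of the list, with 1 point per mouse (circles warm, triangles cold, blue NCD, red HFD). Acacb lies highest, from 6.08 to 28.3, and its top value is from mouse 7, whose list had 2118 distal peaks.

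Other genes of the pathway, 28 in all, served for comparison and included fatty acid elongases, desaturases, triglyceride enzymes and partners of SREBP-1 and ChREBP. H3K4me3 was at a start site of 25 of the 28 in all 8 mice, and of Fads2 and Srebf2 in 7. Pklr, the liver form of pyruvate kinase and a ChREBP target in liver, had neither H3K4me3 nor H3K27ac in any mouse. H3K27ac was at a start site in all 8 mice for 6 of the 28, namely Elovl6, Thrsp, Gpam, Agpat2, Lpin1 and Dgat1. Fads2, Srebf2, Pklr, Thrsp, Agpat2 and Dgat1 were singled out here after their values were seen. In the fit, 0 of 25 H3K4me3 start sites passed by temperature (0% of all) or diet (0.0197% of all). An unadjusted p below 0.05 was reached by 3 of 25 in each, beside 5.43% of all by temperature and 5.74% by diet. For H3K27ac 0 of 6 passed by temperature or diet (0% of 916 in each). At an unadjusted p below 0.05 were 0 of 6 by temperature, beside 3.71% of all, and 2 of 6 by diet (Elovl6 and Gpam), beside 7.64%. Elovl6, the elongase acting on the Fasn product, had the lowest unadjusted p of the list, with H3K4me3 higher on HFD by 1.06 (log2, SE 0.32, unadjusted p = 0.0031, limma adjusted p = 0.709). Its H3K4me3 differed by -0.97 in cold mice (SE 0.32, limma adjusted p = 0.853), and its H3K27ac by 0.78 on HFD (SE 0.31, limma adjusted p = 0.567). For Gpam, the first acyltransferase of triglyceride synthesis, H3K27ac differed by 0.94 on HFD (SE 0.31, limma adjusted p = 0.558). Acss2, which makes acetyl-CoA from acetate, differed by -0.93 in cold mice (SE 0.35, limma adjusted p = 0.853), and Nr1h3 (LXR alpha) by 0.77 (SE 0.37, limma adjusted p = 0.881). Insig2 by diet (-0.65, SE 0.31) and Lpin1 by temperature (0.65, SE 0.34) did not pass either.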

How the data were processed

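Histone ChIP-seq of 8 mice was analysed from 32 peak lists, and the 8 inputs entered only through those lists. Per the labels and the methods of the study, reads were trimmed with cutadapt, aligned with bowtie2 to GRCm38 and used by the authors to call peaks with macs2 against the input of the same mouse. Tool versions and thresholds of the peak calling were not given in the sources used here. Each deposited peak holds a fold enrichment, a ratio of ChIP to local background computed by the authors, −log10 p and q values and a display score, all deposited per library without pooling. The lowest −log10 q in any list was 1.30. The score and −log10 p were not used. Read depth is unknown, and the number of peaks per list stands in for it. No pair of lists of a mark shared more than 2 identical peaks.

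Start sites came from GENCODE M21 and RefSeq, joined within 1000 bp, and a peak was at a start site when it overlapped the span from 1000 bp before to 1000 bp after. Log2 fold of the highest peak was quantile-normalized over start sites with a peak in all 8 mice and fitted in limma 3.58.1 (R 4.3.3) with temperature and diet as terms. Benjamini-Hochberg adjustment ran over all start sites, with a threshold of 0.05. Widths were fitted likewise. Presence was tested by Fisher's exact test, distal shares by two-sided exact permutation (4 against 4 mice, smallest p 0.0286) and pairs of start sites by exact sign flips (smallest p 0.00781), in Python 3.11.15 with scipy 1.17.1. Scripts were tested on simulated data. Coordinates are 1-based.

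The 10 genes and all lists were chosen with earlier results of these data known. The 10 genes were named whatever their values, at most 6 of the 28 further pathway genes by lowest unadjusted p, and other genes where their start lies in a window. Widths, tests of start-site differences by group and counts of values without overlap were added after the data were seen. Promoters were RefSeq sequences of GRCm38.p6. Alternatives were median centring, array weights, peaks in at least 6 mice, summits, other windows and distances, −log10 q of at least 5 and leaving out each mouse. P-values measure the spread between these mice only.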

Additional observations from a re-analysis of the deposited data

Results flagged for a closer look

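Within groups of 4 mice, a single mouse stood far from the other 3 (Dixon's criterion) in 12 of 140 groups examined, and chance alone gives about 1 in 20. Start-site values accounted for 5 of these. Mouse 8 had the higher normalized log2 H3K4me3 fold at Me1 start site 1 among warm mice (5.65, others 4.50 to 4.70) and the higher H3K27ac at Acaca start site 2 (4.12, others 3.38 to 3.45). Its Mlxipl H3K4me3 difference between start sites was -0.64, where the other warm mice had 0.31 to 0.41. Among HFD mice, mouse 11 stood apart for Srebf1 start site 1 minus 2 in H3K27ac (-1.0, others -0.07 to 0.00), and mouse 10 for start site 2 minus 3 (-2.66, others -0.28 to 0.00). Both Srebf1 values rest on missing peaks set at 0: mice 7 and 10 had no H3K27ac peak at start site 1 or 2, and the value of mouse 10 is the height of start site 3 alone.

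The other 7 were distal H3K27ac peaks per 10000. Mouse 7, with 2118 distal peaks in its list, was high for Srebf1 among HFD mice (4.72, others 1.13 to 1.52) and for Fasn among warm mice (4.72, others 1.37 to 1.89), each from a single peak. Mouse 1, with 7292 distal peaks, was high among NCD mice for Mlxipl (5.49, others 1.70 to 1.98), Acacb (17.83, others 6.94 to 7.93) and Scd1 (6.86, others 2.83 to 3.47). Mouse 10 was high for Mlxipl among cold mice (3.38, others 1.70 to 1.98), and mouse 4 low for Scd2 among cold mice (1.49, others 2.25 to 2.28).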

How the results depend on the processing

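Calls at the 10 genes stayed at 0 for fold by temperature, by diet and for presence of every mark under all alternatives run. Over all start sites, H3K4me3 fold by diet went from 2 calls to 0 with median centring, with peaks in at least 6 mice and with summits, and to 0 when any single mouse was left out. It gave 3 calls with array weights and 3 with −log10 q of at least 5. H3K27ac fold by diet gave 1 call with array weights. Leaving out a mouse gave 0 to 3 interaction calls for H3K4me3 and 0 to 20 for H3K27ac. Array weights raised calls of H3K4me3 width by temperature from 0 to 877, including Mlxipl start site 2, Acaca start site 3 and Me1, and those by diet from 20 to 37, against 12 with median centring. For H3K27ac width, array weights gave 16 calls by temperature and 12 by diet. The former included Acaca start site 2 (log2 -1.77, limma adjusted p = 0.0216), narrower in cold mice, which was also called without mouse 7 (-1.97, limma adjusted p = 0.0136) against -1.25 with all mice. Without single mice, width calls ranged from 0 to 2 (H3K4me3, temperature), 2 to 202 (H3K4me3, diet), 0 to 34 (H3K27ac, temperature) and 0 to 2 (H3K27ac, diet), and the cause was not tested. Fasn width by diet kept its direction throughout (log2 -1.36 to -0.93 without single mice, limma adjusted p 0.053 to 0.297).

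For Mlxipl, the cold-minus-warm difference between start sites was -2.11 for H3K4me3 and -2.20 for H3K27ac. It was -1.56 and -1.93 in mice with peaks at both sites, -0.48 and -0.58 by rank within the list, and lay between -2.56 and -1.56 (H3K4me3) and between -2.48 and -1.87 (H3K27ac) without single mice, where exact permutation p ranged from 0.0286 to 0.0571. The p was 0.0571 without mouse 1, 2, 7, 8 or 10 for H3K4me3 and without mouse 2 or 10 for H3K27ac, and 0.0286 without any other mouse. Pairs of start sites passing for H3K4me3 fell from 9 to 0 when only mice with both peaks were used. There 6 of the 9 could not be tested, as a site had no peak in any mouse, and the other 3 (Srebf1 1 and 2, Srebf1 1 and 3, Acacb 1 and 3) kept their differences and unadjusted p in 8 mice with adjusted p of 0.205 to 0.218 (exact). Passing pairs numbered 7 to 9 without single mice. With −log10 q of at least 5, distal regions following temperature or diet fell to 0 and 0, and the Srebf1 distal share by temperature reversed to 0.54 per 10000. Without single mice these regions numbered 1 to 3 (3 without mouse 10) and 2 to 4 (4 without mouse 5). No paired analysis was possible because temperature and diet groups are different mice whose numbers are shared only between marks.

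Limits: each condition had 2 mice, 3 H3K4me1 lists were nearly empty, and the H3K27ac lists of mice 7 and 10 were short. Folds come from peaks only, so a start site below the calling threshold enters as no peak. Reads were not analysed here.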

Other observations

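Start sites of other genes within the windows carried 94 of the 344 H3K4me3 peaks and 89 of the 644 H3K27ac peaks. H3K4me3 was present in all 8 mice at Klhl11 and Ttc25 near Acly, Dus1l near Fasn, Tbl2 near Mlxipl, Uvrag near Dgat2, and the shared Pgm3 and Rwdd2a start near Me1. The Alkbh2 and Ung starts near Acacb had it in 7 mice each, and Vps37d near Mlxipl in 6. H3K27ac at these neighbours was less regular, with 3 mice at Tbl2, 4 at Klhl11, 5 at Ttc25 and 6 at Dus1l. A start annotated as Gm45012 in the Dgat2 window had H3K27ac in 8 mice and H3K4me3 in 4. Distal regions at Scd2 upstream (chr19:44283833-44285167) and downstream (chr19:44314815-44315780) were each overlapped by H3K4me3, in 7 and 8 mice.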
